A study of Caenorhabditis elegans with 2 samples.

Results

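The 26S proteasome is the protease that degrades proteins tagged with ubiquitin. Its barrel, the 20S core particle, has outer rings of alpha subunits that gate the entrance and inner rings of beta subunits that carry the cutting sites. The 19S regulatory particle caps the barrel, binds ubiquitin chains, removes them, and unfolds and feeds the substrate through a ring of ATPases. In *C. elegans* germ cells the proteasome removes meiotic and maternal proteins at set stages, and its loss disturbs synaptonemal complex assembly.

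The proteasome genes were taken by symbol: every gene whose name starts with *pas-*, *pbs-*, *rpt-* or *rpn-* followed by a number. This rule gave 32 of the 46739 genes in the table, of which 7 are *pas* genes (20S alpha ring), 7 are *pbs* genes (20S beta ring), 6 are *rpt* genes (ATPases) and 12 are *rpn* genes (non-ATPase subunits). RNA was sequenced from gonads dissected by hand from adult hermaphrodites about a day after the L4 stage, with 1 library from YBT7 worms and 1 from wild-type (N2) worms. YBT7 is an outcrossed line whose X chromosome was cut by Cas9 into an internal and a linear segment. It carries deletions in *deg-1* (allele *huj32*) and *linc-20* (allele *huj2*) and the rearrangement *hujCf1*. Wild-type worms carry an intact X chromosome. How many animals each library pools is not given in the sources used here, and the source label of the YBT7 sample also contains the words wild type, although its title and genotype name YBT7.

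The YBT7 library held 4525439 counts and the wild-type library 2873065, and counts were divided by a size factor of 1.22 for YBT7 and 0.816 for wild type. *linc-20*, whose locus is partly deleted in YBT7, had 0 counts in YBT7 and 4 in wild type, too few to check a label. Each strain has a single library, so the folds carry no p-value and were not checked in replicates. Intervals are at 95% and cover the counting of reads only, not variation between animals. Germline markers were well counted in both libraries (12 of 12 measured, 4932 CPM in YBT7 and 6833 CPM in wild type for the whole list, where CPM is counts scaled to the library total), with *oma-2*, *cgh-1* and *rme-2* the highest and 0 called. Markers of the intestine summed to 11098 CPM in YBT7 and 963 CPM in wild type, and 12 of 12 measured ones were called higher (*vit-1* to *vit-6*, *asp-1*, *mtl-2*, *lys-1*, *act-5*, *cpr-1* and *ges-1*). *ges-1* and *elt-2*, of which *elt-2* is below the minimum mean and named after its value was seen, had no count in wild type. The call of *ges-1* rests on that 0. With 3 counts put in for wild type its log2 fold would be 1.74, under the 3.02 that a call needed. Body wall muscle markers summed to 1602 CPM in YBT7 and 361 CPM in wild type, with 7 of 8 called higher (*act-4*, *pat-10*, *lev-11*, *tnt-2*, *unc-15*, *unc-27* and *unc-54*). Sperm markers summed to 15.5 CPM in YBT7 and 66.8 CPM in wild type, with 4 of 7 called lower (*sss-1*, *ssp-9*, *gsp-4* and *ssq-4*, with *ssq-1* among the 3 highest but not called). The *msp* family, also planned as sperm markers, is not in this sum. Of the somatic gonad markers 3 were measured (*inx-8*, *inx-9* and *plc-1*) and 0 called, with a sum of 171 CPM in YBT7 and 165 CPM in wild type. The part of these other cells in the proteasome values was not tested. In such bulk samples fewer cells of a type and less RNA per cell cannot be told apart.

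No proteasome subunit was called different between YBT7 and wild-type gonads. The call rule of the study's methods was used: the mean normalized count had to exceed 5, and the log2 fold in either direction had to exceed 1 plus a term that shrinks with depth, namely 5 divided by the root of the mean. All 32 subunits passed the minimum mean, and 0 were called higher and 0 lower. Of the 8618 genes above that mean, 9.55% were called higher in YBT7 and 1.25% lower, 10.8% in all. Among the 3227 genes with a mean above 200, a range that holds 31 of the subunits, 3.28% were called higher and 0.217% lower, 3.5% in all. A count of 0 in 31 genes is near this last share. A subunit other than *rpn-6.2* would have been called at a log2 fold of 1.09 to 1.20, depending on its mean, which is 2.12-fold to 2.30-fold. The largest shifts were 0.60 for *pas-3* and -0.57 for *rpn-2* on the log2 scale, both YBT7 over wild type, so every subunit also lay inside a fixed limit of 2-fold. That limit was passed by 4.09% of genes with a mean above 200 and by 21.8% of all genes above the minimum.

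**Figure D1:**
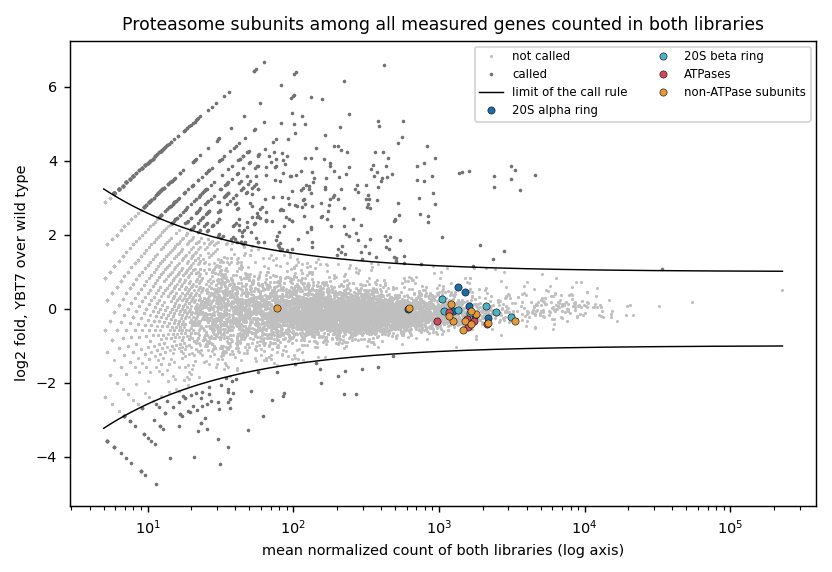
Log2 fold of YBT7 over wild type (vertical axis) against the mean normalized count of both libraries (log axis) for measured genes with a count in both. Coloured points are the 32 proteasome subunits by subcomplex, grey points are other genes, and the lines are the limit of the call rule; all subunits lie between the lines, from -0.57 to 0.60.

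The subunits were abundant transcripts in both strains. Together they took 12812 CPM of the YBT7 library (interval 12708 to 12917) and 15032 CPM of the wild-type library (14890 to 15174). Every subunit but *rpn-6.2* had a mean normalized count above that of 87.6% of the measured genes. Summed and scaled by size factors, the YBT7 level was 0.895 of the wild-type level (interval 0.884 to 0.906). Across subunits the median log2 fold was -0.12, with quartiles of -0.33 and -0.0025. The median of all measured genes was -0.030 with quartiles of -0.32 and 0.51, and that of genes with a mean above 200 was -0.12 with quartiles of -0.31 and 0.090. The median subunit thus stood where the median abundant gene stood. Of the 32 subunits, 18 had an interval wholly below 0, 4 had one wholly above 0 and 10 had one that held 0.

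**Figure D2:**
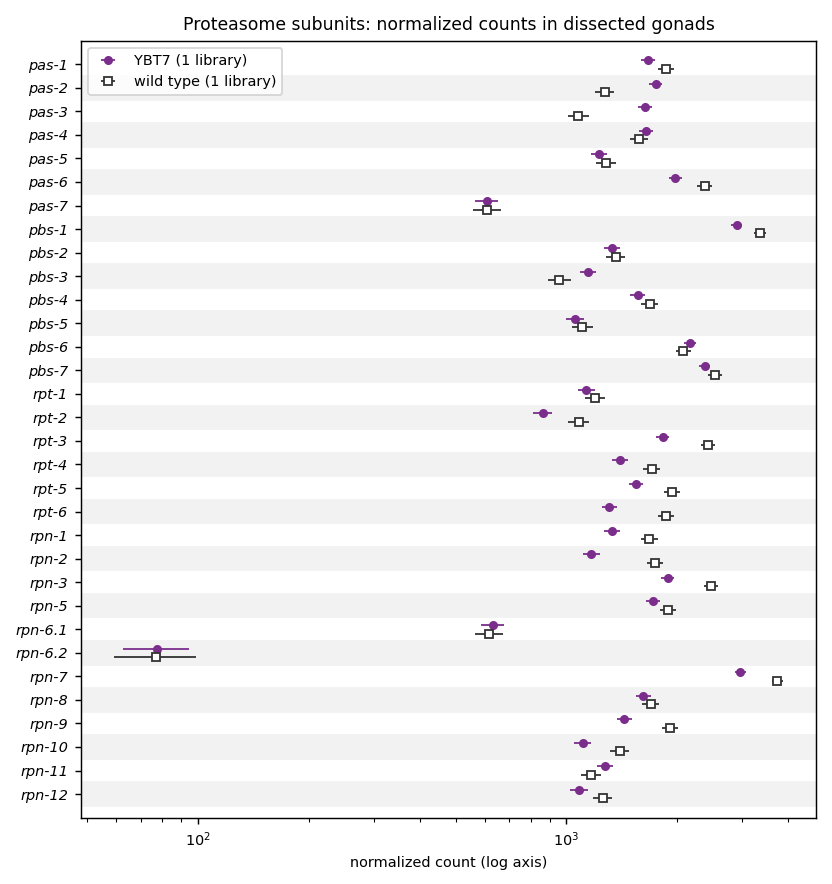
Normalized count (log axis) of each proteasome subunit in the YBT7 library (filled circles, above) and the wild-type library (open squares, below), with 95% counting intervals. All subunits but *rpn-6.2* lie between 607 and 3731 normalized counts, and the YBT7 circles of the *rpt* genes lie left of the wild-type squares.

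The 19S genes had a lower median fold than the 20S genes, with ranges that overlapped. The 14 genes of the 20S core particle had a median log2 fold of -0.049 (range -0.26 to 0.60), and the 18 genes of the 19S regulatory particle had a median of -0.33 (range -0.57 to 0.12). The difference of these medians was -0.28, and -0.16 once the median of abundant genes of similar exon length was taken off. In summed counts, the 20S genes had 28166 in YBT7 and 18863 in wild type, 0.995 of the wild-type level after scaling (interval 0.977 to 1.01). The 19S genes had 29814 in YBT7 and 24324 in wild type, 0.817 of the wild-type level (0.803 to 0.831). Within a library, the ratio of 19S to 20S counts was 1.06 in YBT7 and 1.29 in wild type. This ratio needs no scaling between libraries, and the YBT7 value was 0.821 of the wild-type value (exact conditional interval 0.801 to 0.842).

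The alpha ring held the pair of subunits with the highest folds, *pas-3* and *pas-2*. *pas-3* (WBGene00003924, chromosome I from 5105107 to 5106204 in WBcel235) had 1995 raw counts in YBT7 and 880 in wild type, or 1629 normalized counts in YBT7 and 1078 in wild type, a log2 fold of 0.60 (interval 0.48 to 0.71). *pas-2* (WBGene00003923, chromosome V from 10770321 to 10771352) had 2138 raw counts in YBT7 and 1036 in wild type, or 1746 normalized in YBT7 and 1269 in wild type, a log2 fold of 0.46 (0.35 to 0.57). These 2 genes lie on different chromosomes and were the only members of their ring whose interval lay above 0. The other 5 alpha subunits were level with wild type or below it. *pas-4* had 1646 normalized counts in YBT7 and 1573 in wild type, and its interval held 0. So did those of *pas-5*, with 1224 in YBT7 and 1279 in wild type, and *pas-7*, with 607 in YBT7 and 610 in wild type. *pas-1* had 1659 in YBT7 and 1858 in wild type (log2 fold -0.16, interval -0.26 to -0.066), and *pas-6* had 1972 in YBT7 and 2369 in wild type (-0.26, interval -0.35 to -0.18). The ring as a whole had a median log2 fold of -0.0058, and its summed level in YBT7 was 1.04 of wild type (1.02 to 1.07). The alpha subunits enter the ring in equal number, and the folds of their transcripts ran in both directions.

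The beta ring spanned a narrower range than the alpha ring, with log2 folds from -0.21 to 0.26 and a median of -0.069. In yeast and mammals the cutting sites sit in the subunits beta 1, beta 2 and beta 5, and *pbs-1*, *pbs-2* and *pbs-5* encode the corresponding worm proteins. *pbs-1* (WBGene00003947, chromosome IV from 1708804 to 1709745) had 2894 normalized counts in YBT7 and 3359 in wild type, a log2 fold of -0.21 (-0.29 to -0.14). *pbs-2* had 1328 in YBT7 and 1361 in wild type, and *pbs-5* had 1053 in YBT7 and 1105 in wild type, with log2 folds of -0.035 and -0.069 whose intervals held 0. So of the 3 genes of the cutting sites, 1 had an interval below 0. Among the beta subunits without a cutting site, *pbs-3* had 1144 in YBT7 and 957 in wild type (log2 fold 0.26, interval 0.13 to 0.39). *pbs-4* had 1560 in YBT7 and 1684 in wild type (-0.11, interval -0.21 to -0.0090), and *pbs-7* had 2369 in YBT7 and 2529 in wild type (-0.095, interval -0.18 to -0.012). *pbs-6* had 2165 in YBT7 and 2073 in wild type, and its interval held 0.

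**Figure D3:**
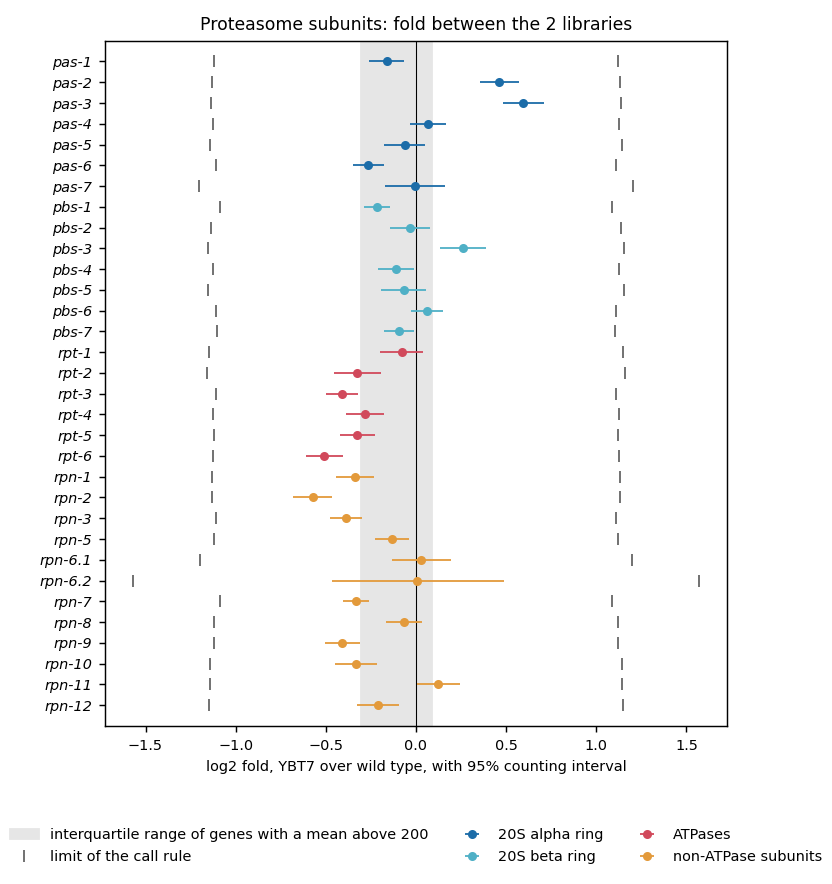
Log2 fold of YBT7 over wild type for each proteasome subunit with its 95% counting interval, coloured by subcomplex. The grey band is the interquartile range of genes with a mean above 200 (-0.31 to 0.090) and the short bars mark the limit of the call rule; *pas-2*, *pas-3* and *pbs-3* lie to the right of the band with their whole intervals, and all 6 *rpt* genes lie left of 0.

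All 6 ATPase genes had lower levels in YBT7, though none reached the limit of a call. The ATPases form a hexamer that opens the gate of the core, unfolds the substrate and threads it inside. *rpt-6* (WBGene00004506, chromosome III from 12370456 to 12372625) had 1602 raw counts in YBT7 and 1520 in wild type, or 1308 normalized in YBT7 and 1862 in wild type, a log2 fold of -0.51 (-0.61 to -0.41). *rpt-3* had 1822 normalized counts in YBT7 and 2421 in wild type, a log2 fold of -0.41 (-0.50 to -0.32). *rpt-5* had 1542 in YBT7 and 1933 in wild type (-0.33), *rpt-2* had 861 in YBT7 and 1079 in wild type (-0.32), and *rpt-4* had 1398 in YBT7 and 1701 in wild type (-0.28), each with an interval below 0. *rpt-1* had 1132 in YBT7 and 1197 in wild type, a log2 fold of -0.079 whose interval held 0 (-0.20 to 0.040). The median of the 6 was -0.33, and their summed level in YBT7 was 0.791 of wild type (0.768 to 0.815), the lowest of the 4 subcomplexes. All 6 stayed below 0 under each of the 4 other scalings of the libraries, with *rpt-1* between -0.15 and -0.041.

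The non-ATPase subunits were lower in YBT7 for 9 of 12 genes, with a median log2 fold of -0.27 and a summed level of 0.831 of wild type (0.814 to 0.848). With the median of genes of similar exon length taken off, 7 of 12 were below 0 and the median was -0.084. *rpn-1* and *rpn-2* encode the large scaffold proteins of the base. *rpn-2* (WBGene00004459, chromosome III from 6198902 to 6202627) had 1430 raw counts in YBT7 and 1419 in wild type, or 1168 normalized in YBT7 and 1738 in wild type, a log2 fold of -0.57 (-0.68 to -0.47), the lowest of all subunits. *rpn-1* had 1328 normalized counts in YBT7 and 1678 in wild type (-0.34, interval -0.44 to -0.23).

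In the lid, *rpn-11* encodes the enzyme that cuts ubiquitin chains off the substrate and *rpn-8* its partner. *rpn-11* had 1270 normalized counts in YBT7 and 1166 in wild type, a log2 fold of 0.12 (0.0066 to 0.24), the only 19S gene whose interval lay above 0. This bound is close to 0, and the fold was 0.053 with scaling by total counts. *rpn-8* had 1617 in YBT7 and 1691 in wild type, and its interval held 0. Neither interval lay below 0, unlike those of both scaffold genes. The scaffold genes are longer, with 3171 (*rpn-1*) and 3166 (*rpn-2*) bases of exon against 1235 for *rpn-11* and 1234 for *rpn-8*. With the median of genes of similar exon length taken off, *rpn-1* stood at -0.014, *rpn-2* at -0.25, *rpn-8* at 0.067 and *rpn-11* at 0.25. Among the lid genes with a PCI domain, which hold the lid together, *rpn-7* was the most abundant, with 2961 in YBT7 and 3731 in wild type (-0.33, interval -0.40 to -0.26). *rpn-3* had 1883 in YBT7 and 2463 in wild type (-0.39), and *rpn-9* had 1436 in YBT7 and 1906 in wild type (-0.41). *rpn-5* had 1720 in YBT7 and 1886 in wild type (-0.13), and *rpn-12* had 1083 in YBT7 and 1253 in wild type (-0.21). These 5 intervals lay below 0, whereas those of *rpn-6.1* and *rpn-6.2*, which encode a further PCI subunit, held 0.

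*rpn-10* encodes a receptor for ubiquitin chains that acts in sex determination of the hermaphrodite germline. It had 1106 normalized counts in YBT7 and 1393 in wild type, a log2 fold of -0.33 (-0.45 to -0.22). A further receptor gene, *rpn-13*, is listed in the table under the name C56G2.7 and so falls outside the rule for names. It had 560 in YBT7 and 505 in wild type, a log2 fold of 0.15 whose interval held 0 (-0.028 to 0.33).

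The genome holds a pair of genes for the lid subunit RPN-6. Overexpression of *rpn-6.1* extends worm lifespan under stress, and worms without germ cells carry more of it. *rpn-6.1* (WBGene00004462, chromosome III from 6959110 to 6962027) had 772 raw counts in YBT7 and 504 in wild type, and *rpn-6.2* (WBGene00010309, chromosome III from 8999818 to 9002000) had 95 in YBT7 and 63 in wild type. The pair stood in a similar proportion in both strains: *rpn-6.1* had 8.13 times the counts of *rpn-6.2* in YBT7 (6.56 to 10.2) and 8 times in wild type (6.15 to 10.6). Per kb of exon the proportion was 7.69 in YBT7 and 7.57 in wild type. The log2 folds were 0.030 for *rpn-6.1* (-0.13 to 0.20) and 0.0076 for *rpn-6.2* (-0.47 to 0.49). The interval of *rpn-6.2* is wide enough that a shift like that of *rpn-9* was not detectable at its depth. The pair are paralogs, so reads they share could have been left out of both and their values are uncertain.

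Levels of different genes were first compared per kb of exon, a scale that raises short genes where reads come from transcript ends. On this scale *pbs-1* was the highest in both strains, with 3521 normalized counts per kb in YBT7 and 4087 in wild type, followed by *pbs-7* with 2698 in YBT7 and 2881 in wild type. *rpn-6.2* was the lowest, with 49.8 in YBT7 and 49.6 in wild type, and the next lowest stood 9.55-fold below *pbs-1* in YBT7 (*rpn-2*) and 10.9-fold below it in wild type (*rpn-6.1*). Of the 31 neighbouring pairs in this order, 22 had overlapping intervals in YBT7 and 22 in wild type. The median of the 20S genes was 1844 per kb in YBT7 and 1644 in wild type, and that of the 19S genes was 981 in YBT7 and 1133 in wild type. The 10 highest genes by mean level per kb included 8 of the 20S. Reads were primed at the poly(A) tail, and the amplification primer matches the adapter of the priming oligo. Reads thus come mainly from transcript ends, and division by length raises short genes such as those of the 20S. Levels without division by length suit this protocol better. Without division by length *rpn-7* stood first, 5 of the 10 highest were 20S genes, and the median 20S level over the median 19S level was 1.24 in YBT7 and 0.865 in wild type, against 1.88 in YBT7 and 1.45 in wild type per kb. The order of the particles in wild type thus turned with the scale, and the per kb order should not be read as one of transcript number.

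Exon length, taken over all annotated exons of a gene, moved with the fold across the libraries. The 20S genes have 801 to 1059 bases of exon (median 880.5), and the 19S genes have 855 to 3171 (median 1483.5). Among the 3223 genes with a mean above 200 and a known exon length, the median log2 fold was 0.14 for the 333 genes of up to 600 bases, -0.044 for the 291 of 801 to 1000 bases, -0.13 for the 424 of 1201 to 1500 bases, -0.32 for the 359 of 3001 to 5000 bases and -0.44 for the 93 above 5000 bases. Over the 32 subunits, Spearman's rho between length and log2 fold was -0.52 and Pearson's r was -0.53, a description over genes that share the same libraries.

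Set against genes of their own length class, the particles lay closer together. With the class median taken off, the median of the 20S genes was -0.0044 and that of the 19S genes was -0.16, so that the gap between the particles was -0.16 in place of -0.28. The median of the ATPases became -0.19, and 5 of the 6 still lay below the lower quartile of their class. The exception, *rpt-1*, has 1513 bases of exon and fell into the class of 1501 to 2000 bases, where its value became 0.099. Of the non-ATPase genes 6 of 12 lay below the lower quartile of their class and 3 above the upper quartile, and their median became -0.084. *rpn-1*, with 3171 bases, stood at -0.014 from its class, and *rpn-2*, with 3166 bases, at -0.25. *pas-3* and *pas-2* stood furthest above their class, by 0.64 and 0.50. The germline markers, with a median exon length of 2279 bases, had a median log2 fold of -0.37, and 11 of 12 were below 0. The part of length and of the germline share in the lower 19S values was not tested beyond these class values.

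**Figure D4:**
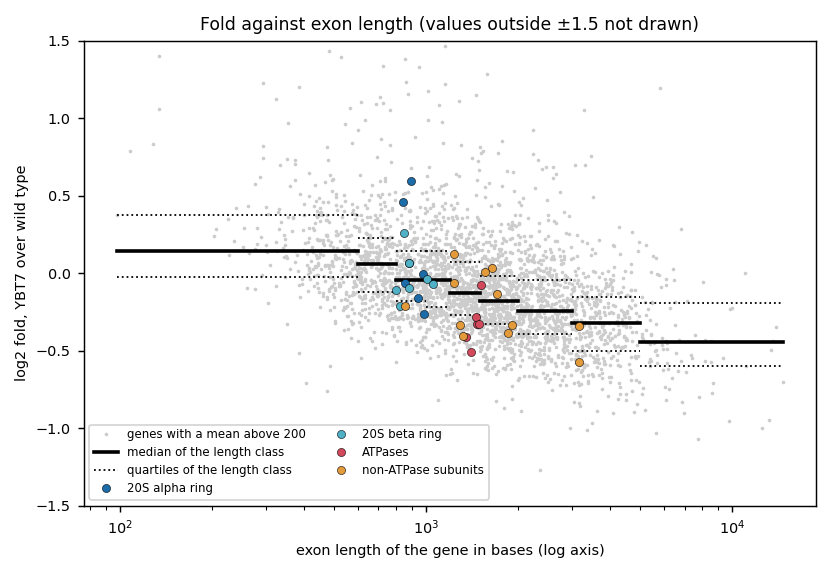
Log2 fold of YBT7 over wild type against exon length (log axis) for genes with a mean above 200 (grey) and for the proteasome subunits (coloured), with the median and the quartiles of each length class. Class medians run from 0.14 for the shortest to -0.44 for the longest genes, and most ATPases lie below the lower quartile of their class.

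The subunit genes were spread over the autosomes, with 10 on chromosome I, 7 on II, 7 on III, 3 on IV and 5 on V, and none was on the X chromosome, which carries 12.2% of the 8618 measured genes. None of them was therefore on the cut chromosome. Some subunits lie beside another gene of the ubiquitin system. *rpn-12* and *rad-23*, a gene for a protein that brings ubiquitinated substrates to the proteasome, lie 146 bp apart on opposite strands and point away from each other (chromosome II, *rpn-12* from 11653053 to 11654194 and *rad-23* from 11651260 to 11652906). Their log2 folds were -0.21 for *rpn-12* and 0.10 for *rad-23* (interval -0.0020 to 0.20), on either side of 0. *rpn-6.2* lies 788 bp from *zif-1*, a substrate receptor gene of a cullin ligase that acts in early embryos, which had a log2 fold of -0.0058. *pas-5* lies 1435 bp from *ubc-25*, a conjugating enzyme gene on the same strand. Their log2 folds were -0.063 for *pas-5* and -0.37 for *ubc-25* (interval -0.50 to -0.25). Another annotated gene with counts overlaps 11 of the subunit genes, in all but 1 case on the opposite strand. By the counts of the partner the largest such overlap is that of *rpt-4*, which overlaps *nfyc-1* with 801 counts in YBT7 and 471 in wild type and also *rpoa-49* with 253 in YBT7 and 151 in wild type. Both partners lie on the opposite strand. The authors counted with the default settings of HTSeq, and the effect of these overlaps on the *rpt-4* counts was not tested.

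No gene of the lists that work with the proteasome was called either. The shares called were 10.8% of all measured genes and 3.5% of abundant genes. In any single list of this size a count of 0 is near the share of abundant genes. Over the lists together it lies below the 10.8%, and not all members are in the abundant range. This difference was not tested. Lists were written from general knowledge, and the members named are the 3 with the highest mean. Of 9 measured factors that act with the proteasome, 0 were called and the median log2 fold was -0.12, as for the subunits themselves. *rad-23* had 2029 counts in YBT7 and 1262 in wild type, *dss-1*, the gene of a small lid subunit, had a log2 fold of -0.12, and *usp-14*, the gene of a deubiquitinase that binds the 19S particle, 0.0079. Of 11 genes of the CDC-48 (p97) segregase and its cofactors 0 were called (median -0.19), with *cdc-48.1* at -0.30, *cdc-48.2* at -0.34 and *ubxn-1* at -0.062. The log2 fold of *skn-1*, named here after its value was seen, was -0.43 (interval -0.59 to -0.27). It encodes the transcription factor that induces proteasome genes when proteasome activity is low. Of the 9 factors 6 were below 0 and 3 above. Among the latter was *png-1*, with 87 counts in YBT7 and 37 in wild type (log2 fold 0.65, interval 0.078 to 1.24).

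Upstream, 0 of 18 measured genes of ubiquitin, its activating enzyme and the conjugating enzymes were called (median -0.0020). The ubiquitin genes themselves differed. *ubq-2*, which encodes ubiquitin fused to a ribosomal protein, had 17720 counts in YBT7 and 7975 in wild type, a log2 fold of 0.57 (0.53 to 0.61). *ubq-1*, the polyubiquitin gene, had 6451 in YBT7 and 5732 in wild type, a log2 fold of -0.41 (-0.47 to -0.36). *ubl-1*, which encodes a ubiquitin-like protein fused to a ribosomal protein, had a log2 fold of 0.079. *ubq-2* has 435 bases of exon and *ubq-1* has 2823. Genes with a mean above 200 had a median log2 fold of 0.14 up to 600 bases and -0.24 from 2001 to 3000 bases. The part of length in the difference between *ubq-2* and *ubq-1* was not tested. The 2 ubiquitin genes share coding sequence, so reads could have been lost from both. Of the cullin ligase genes 0 of 21 were called (median -0.22), with *rbx-1*, the RING subunit, at -0.016, *skr-2* at -0.042 and *elb-1* at -0.082. Of the anaphase promoting complex, the ligase that starts anaphase, 0 of 13 were called (median -0.27), with the activator *fzy-1* at -0.45, *emb-30* at -0.21 and *mat-1* at -0.025. The median exon length was 963 bases for the ubiquitin list, 2493 for the cullin list and 2312 for the anaphase promoting complex. The part of length in the differences between these medians was not tested.

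The COP9 signalosome and the CCT chaperonin are complexes of similar build, the first related to the lid and the second a ring that folds actin and tubulin. The 6 measured COP9 genes had a median log2 fold of 0.19 and 4 of them were above 0, with *csn-5* at 0.19, *csn-6* at -0.32 and *csn-3* at 0.21. The intervals of these 4 all held 0 (*csn-5* -0.0029 to 0.38, *csn-3* -0.037 to 0.46). *csn-6* was the only COP9 gene whose interval left out 0, and it lay below 0 (-0.51 to -0.13). The 8 CCT genes ran from -0.54 to 0.61 with a median of -0.038, with *cct-5* at -0.54, *cct-4* at -0.37 and *cct-1* at -0.36. None of either was called. The median exon length was 1659.5 bases for COP9 and 1928.5 for CCT, both above the 1483.5 of the 19S genes. Length class medians were not taken off for these or the other related lists, so the part of length in their folds was not tested. No test of the difference between these lists could be made with 1 library per strain.

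**Figure D5:**
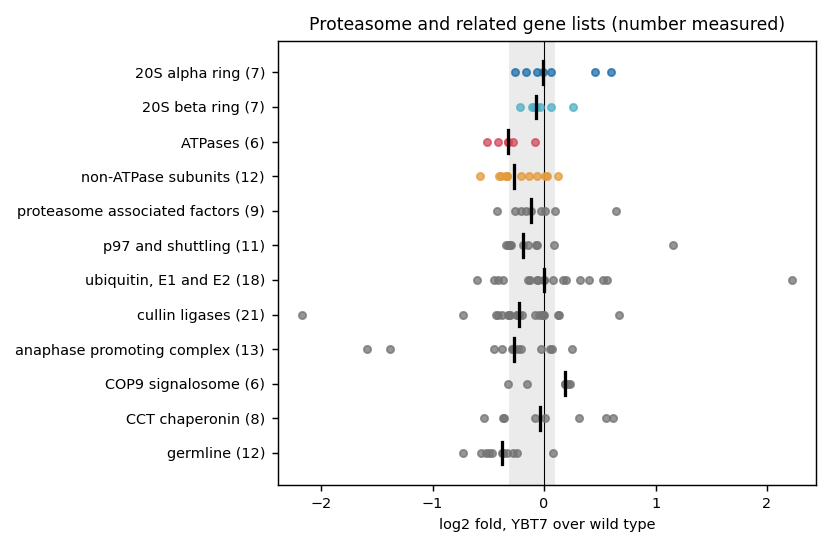
Log2 fold of YBT7 over wild type for the measured members of each proteasome subcomplex (coloured) and of related lists (grey), with the median of each as a black bar and the interquartile range of genes with a mean above 200 as a band. The ATPase median lies at -0.33 and the germline median at -0.37, both left of the other medians drawn. Exon length differs between the lists, and no length class median was taken off.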

How the data were processed

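The deposited table holds raw counts per gene for both libraries. The authors reverse transcribed RNA from a poly(A)-priming oligo with a molecular identifier and amplified it by in vitro transcription. Per their notes they used cutadapt (1.12) for trimming, TopHat2 (2.1.1) for alignment on WBcel235 and HTSeq (0.6.0, defaults) for counting. Collapsing of identifiers is not mentioned, so intervals may be too narrow. The authors' DESeq2 values and fold changes in the same table were not used.

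Size factors were medians of ratios over 10603 genes counted in both libraries with at least 3 counts in all. Subunit folds have exact conditional intervals, CPM values exact Poisson intervals. Exon lengths were those of Ensembl release 115 for WBcel235, which lists all 32 subunits, with gene borders up to 420 bp from those in the table. Alternatives used edgeR (version 4.0.16) factors, total counts, autosomal size factors, a pseudocount, thinning, other limits and minimum means. The length classes were added after seeing the data. The call rule and intervals were tested on simulated Poisson counts. The intervals assume the same model, so this check does not speak to variation between animals or to uncollapsed identifiers.

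The subunits and lists were chosen with earlier results of these data known. Named are all subunits and, of each list, called members and the 3 with the highest mean; other names were chosen after their values were seen. No sequences were printed, because the reference used here held none. Scripts ran in Python 3.11.15 (numpy 2.4.6, pandas 2.3.3, scipy 1.17.1, matplotlib 3.10.9) and R 4.3.3.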

Additional observations from a re-analysis of the deposited data

How the results depend on the processing

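The count of 0 called subunits was the same under total counts, TMM and upper quartile factors, autosomal size factors, a pseudocount of 1, thinned YBT7 counts, a fixed 2-fold limit and a minimum mean of 50. The summed YBT7 level was 0.852 of wild type with total counts, 0.912 with TMM and 0.919 with upper quartile factors. The number of subunits below 0 was 24 in the main setting, 28 with total counts and 22 with upper quartile factors, and 19 with the length class median taken off, an alternative chosen after seeing the data. With a fixed 2-fold limit, 1 gene each of the p97, ubiquitin and cullin lists and 2 of the anaphase promoting complex were called. Without division by length, the 20S over 19S level was 1.24 in YBT7 and 0.865 in wild type. No paired analysis was possible because each strain has 1 library. At the depth of the subunits the rule calls no fold under 2.12-fold, and animal-to-animal variation is unknown.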

Other observations

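Low-count members of the related lists had the widest folds, and these were picked out after their values were seen. *vhl-1*, the substrate receptor gene of a cullin ligase that acts on the hypoxia factor and an X-linked gene, had 7 counts in YBT7 and 21 in wild type (log2 fold -2.17, interval -3.65 to -0.88). *gfi-3*, an X-linked gene of the anaphase promoting complex, had 30 in YBT7 and 52 in wild type (-1.38, interval -2.08 to -0.70), and *apc-17* had 6 in YBT7 and 12 in wild type (-1.58, interval -3.28 to -0.059). *ubc-26*, which encodes a conjugating enzyme, had 14 counts in YBT7 and 2 in wild type (2.22, interval 0.10 to 5.40), and *ubxn-3* had 10 in YBT7 and 3 in wild type, with an interval that held 0. These genes are the ones that a fixed limit of 2-fold would have called. *ddi-1*, the protease gene that activates SKN-1 when the proteasome is impaired, is listed as C01G5.6 and had 668 counts in YBT7 and 514 in wild type (-0.21, interval -0.37 to -0.038).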
